A study of Rattus norvegicus with 2 samples.

Results

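The genes described here are 7 members of the antigen presentation system of the rat major histocompatibility complex (MHC): B2m and RT1-A2 of class I, Cd74, RT1-Da, RT1-Db1 and RT1-Ba of class II, and Ciita, the class II regulator. They were taken by gene symbol, and all 7 were found among the 32623 genes of the deposited tables. The cells came from the hippocampus of male rat embryos at gestational day 20, where microglia had been isolated by flow cytometry and sequenced in droplets. The question was what exposure before birth to dexamethasone, a synthetic glucocorticoid, does to these cells. There were 2 libraries, 1 of dexamethasone-exposed embryos and 1 of controls without it, each a pool of 7 males, and the strain, the dose and the days of exposure are not given in the sources used here. With 1 library per exposure there is no replicate and no test, so every difference is one between these libraries, in which the exposure cannot be told apart from a difference in pool or preparation.

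MHC class I molecules sit on nearly all nucleated cells and show peptides made inside the cell to cytotoxic T cells. Each consists of a heavy chain, in the rat encoded by a family of RT1 genes, and the invariant light chain B2m. Class II molecules pair an alpha and a beta chain, are held until loading by the invariant chain Cd74, and show peptides from engulfed material to helper T cells. In most cells class II genes are silent unless the coactivator Ciita is made, as it is in dendritic cells, B cells and some macrophages. Microglia carry class I at rest and are known to gain class II in inflamed or ageing brain, and MHC genes are among the most polymorphic of the genome.

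The promoters are shown because the classes are known to differ in their promoter elements and most class II UMIs lay in few cells. Sequences come from RefSeq on the GRCr8 build, while the counts were made on Rnor_6.0. They run from 250 bases before to 50 bases after the annotated start, 5′ to 3′ on the gene's strand, and 6 of the 7 members had an entry. The class I promoters follow, with B2m at chr3:129549080-129549379 and RT1-A2 at chr20:4872621-4872920, both on the plus strand. Capitals mark, in B2m, a match to the interferon response element, GAAA, any 2 bases and GAAA again. In RT1-A2 they mark the palindrome bound by NF-kappaB factors, GGGGA and TCCCC with a T between, and, read on the opposite strand, the interferon element of class I genes, GAA, any 2 bases and GAAAC.
B2m: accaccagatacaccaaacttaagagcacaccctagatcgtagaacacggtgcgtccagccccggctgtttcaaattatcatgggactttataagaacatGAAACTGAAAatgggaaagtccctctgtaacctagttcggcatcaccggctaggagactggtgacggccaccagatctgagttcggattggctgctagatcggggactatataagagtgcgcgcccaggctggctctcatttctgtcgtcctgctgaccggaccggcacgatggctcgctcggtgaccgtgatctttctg
RT1-A2: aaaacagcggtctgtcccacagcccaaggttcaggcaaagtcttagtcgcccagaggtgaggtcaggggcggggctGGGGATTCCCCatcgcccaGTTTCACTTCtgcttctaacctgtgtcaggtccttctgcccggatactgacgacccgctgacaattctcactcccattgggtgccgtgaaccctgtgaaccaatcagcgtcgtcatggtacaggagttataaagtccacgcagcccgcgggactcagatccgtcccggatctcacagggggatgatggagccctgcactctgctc
The class II promoters follow, with Cd74 at chr18:56526956-56527255, RT1-Da at chr20:4515165-4515464 and RT1-Ba at chr20:4576807-4577106 on the plus strand and RT1-Db1 at chr20:4560113-4560412 on the minus strand. Capitals mark letters that match the core of the X box, GNAAC, and a Y box, ATTGG or its reverse CCAAT, 20 to 30 bases further on. The Cd74 match differs from the others. Its Y box reads CCAAT, where RT1-Da, RT1-Db1 and RT1-Ba have ATTGG, and the pair lies further from the start. A GCAAC nearer the start of Cd74 has no exact Y box at that distance and is not marked.
Cd74: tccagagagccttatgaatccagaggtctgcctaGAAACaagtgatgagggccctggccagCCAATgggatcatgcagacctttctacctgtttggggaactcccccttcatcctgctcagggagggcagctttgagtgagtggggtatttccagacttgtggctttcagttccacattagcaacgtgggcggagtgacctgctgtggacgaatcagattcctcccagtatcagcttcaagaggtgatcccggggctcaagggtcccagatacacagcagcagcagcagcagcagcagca
RT1-Da: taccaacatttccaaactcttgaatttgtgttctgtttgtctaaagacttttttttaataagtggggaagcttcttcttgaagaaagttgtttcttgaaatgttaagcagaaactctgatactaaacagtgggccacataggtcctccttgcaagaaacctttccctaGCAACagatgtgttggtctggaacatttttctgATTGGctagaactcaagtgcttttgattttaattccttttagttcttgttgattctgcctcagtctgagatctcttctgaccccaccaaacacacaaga
RT1-Db1: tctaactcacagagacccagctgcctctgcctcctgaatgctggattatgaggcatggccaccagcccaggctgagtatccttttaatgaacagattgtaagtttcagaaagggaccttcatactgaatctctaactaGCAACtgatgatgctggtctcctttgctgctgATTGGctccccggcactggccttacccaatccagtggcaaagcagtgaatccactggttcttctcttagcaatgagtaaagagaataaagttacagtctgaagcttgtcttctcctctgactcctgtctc
RT1-Ba: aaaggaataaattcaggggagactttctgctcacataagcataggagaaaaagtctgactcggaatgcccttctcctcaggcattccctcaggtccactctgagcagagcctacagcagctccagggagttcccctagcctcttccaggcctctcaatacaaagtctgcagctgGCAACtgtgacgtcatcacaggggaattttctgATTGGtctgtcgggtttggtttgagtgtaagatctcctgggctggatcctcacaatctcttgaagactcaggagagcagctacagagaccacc
The X and Y pair, searched on both strands, was found in all 4 class II members and in neither class I member, and in 3.47% of 33469 promoters of the same length. It did not fully separate the wider families. Of the class II chains outside the members, RT1-DOa, RT1-DOb, RT1-Db2 and RT1-Ha had a pair, and RT1-Bb and RT1-DMa had none in this window. Of the class I heavy chains, RT1-T24-1 and RT1-T24-3 had a pair, and the others searched had none. The palindrome occurred in 0.0627% of promoters (21 in all), among them those of the class I heavy chains RT1-A2, RT1-A1, RT1-CE10 and RT1-CE4. The interferon element of class I genes occurred in 1.65% and that of B2m in 3.92% of promoters. A match describes letters and is not a site of binding. Ciita had no entry.

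The dexamethasone library held 4328 barcodes with 42611920 unique molecular identifiers (UMIs, counted transcripts) and the control library 8342 barcodes with 69940778 UMIs, and 5 barcode sequences occurred in both. After filtering, 4198 dexamethasone and 8044 control cells were kept, with median depths of 8988 UMIs in dexamethasone and 7622 UMIs in control cells. Clustering without the MHC genes gave microglia-like cells (3352 dexamethasone, 6147 control), border-macrophage-like cells (525 dexamethasone, 1083 control), a cluster led by S100a8 and S100a9 (91 dexamethasone, 127 control), neuron-like cells (121 dexamethasone, 501 control), erythroid-like cells (102 dexamethasone, 131 control) and unnamed cells (7 dexamethasone, 55 control). Of 15 microglia markers, Siglech was at 0 in the microglia-like cells of both libraries and the other 14 were detected. The microglia-like clusters were not evenly filled: one led by ribosomal protein genes and Plek held 1030 dexamethasone and 297 control cells, and one led by Gal3st4, Tmem119 and P2ry12 held 540 dexamethasone and 2562 control cells. Levels are given as UMIs of a gene per 1000000 UMIs of the same cells (CPM), with no correction for gene length, so they are compared between cells and libraries and not between genes. Intervals are exact at the 95% level and cover counting error only.

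B2m, the light chain shared by all class I molecules, was carried by almost every microglia-like cell and stood at nearly the same level in both libraries there. It reached 5994 CPM in dexamethasone and 6032 CPM in control microglia-like cells (log2 ratio of dexamethasone over control -0.01, interval -0.02 to -0.00), and 99.7% of dexamethasone and 99.4% of control cells held at least 1 UMI. In border-macrophage-like cells B2m was at 4968 CPM in dexamethasone and 4482 CPM in control cells, a log2 ratio of 0.15 (0.13 to 0.17). The difference was wider in the S100a8/S100a9 cluster, with 3014 CPM in dexamethasone and 2427 CPM in control cells (0.31, 0.24 to 0.38). The order of these 3 classes, microglia-like cells highest, was the same in both libraries, and their B2m intervals did not overlap within a library. Erythroid-like cells had the lowest level of the named classes, 474 CPM in dexamethasone and 425 CPM in control cells.

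**Figure D1:**
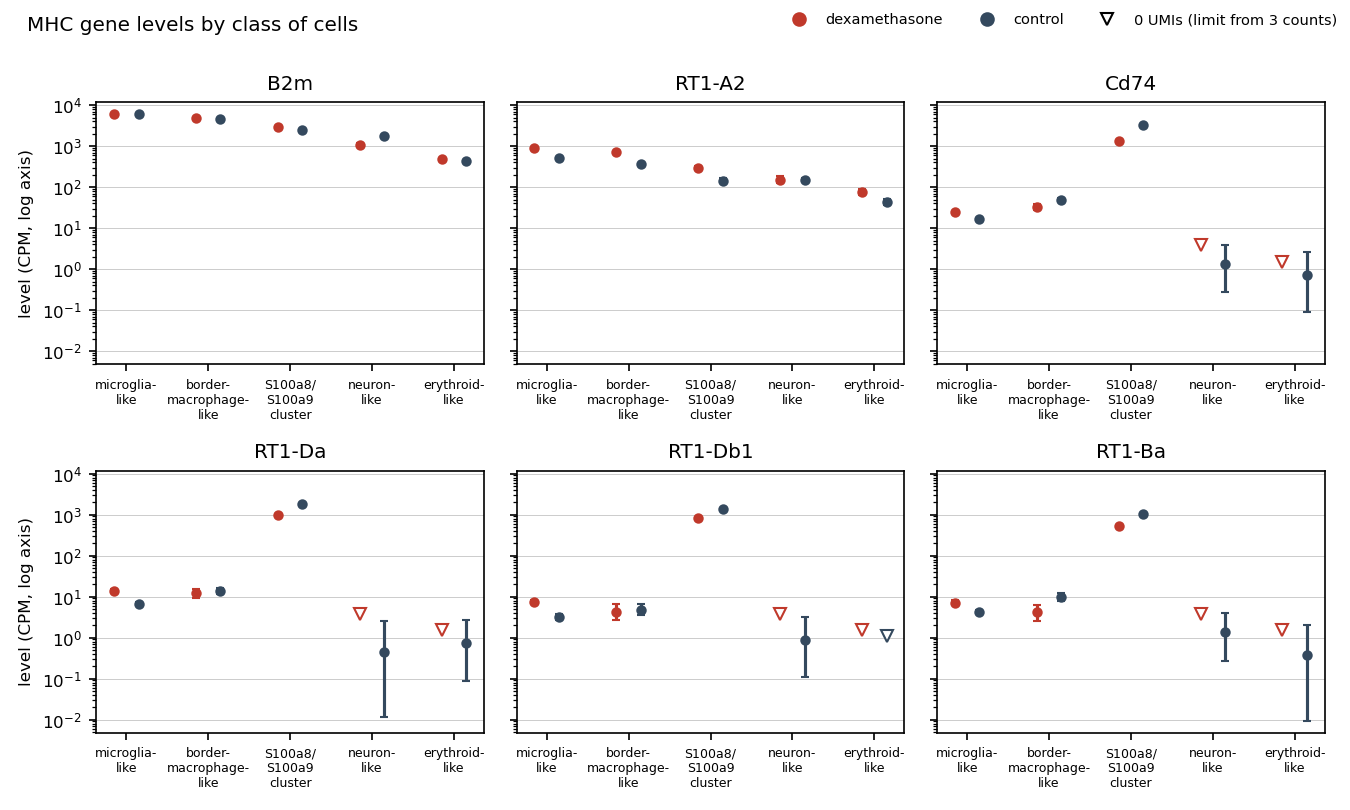
Levels of 6 members (CPM, log axis) in 5 classes of cells, dexamethasone in red and control in dark blue, with exact 95% Poisson intervals where these exceed the point; open triangles mark the limit that a count of 0 allows (3 counts). B2m is at 5994 CPM in dexamethasone and 6032 CPM in control microglia-like cells, RT1-A2 is at 912 CPM in dexamethasone and 529 CPM in control microglia-like cells, and the class II members are highest in the S100a8/S100a9 cluster.

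RT1-A2, a classical class I heavy chain, differed between the libraries in microglia-like cells, where B2m hardly did. They had 912 CPM (902 to 923) in dexamethasone and 529 CPM (523 to 535) in control cells, 1.73 times as much in dexamethasone (log2 ratio 0.79, 0.76 to 0.81). Border-macrophage-like cells had 705 CPM in dexamethasone and 365 CPM in control cells (0.95, 0.88 to 1.02). The S100a8/S100a9 cluster had 298 CPM in dexamethasone and 145 CPM in control cells (1.04, 0.78 to 1.30). The dexamethasone value was the higher one in all 3 of these classes.

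The difference was about as large within single clusters as over a class. Over the 6 microglia-like clusters the log2 ratio of RT1-A2 lay between 0.76 and 0.96, with 0.94 in the Gal3st4, Tmem119 and P2ry12 cluster and 0.96 in the ribosomal protein cluster. The larger border-macrophage-like cluster gave 0.79, and the smaller one, led by Ccl24, Clec10a and Cd163, gave 1.25 from 23 dexamethasone and 99 control UMIs. More cells also held the transcript. With every cell thinned to 3900 UMIs, 92.8% of 3174 dexamethasone and 83.5% of 5552 control microglia-like cells held at least 1 RT1-A2 UMI, with 178 dexamethasone and 595 control cells of lower depth left out. Unthinned, at median depths of 8882 UMIs in dexamethasone and 7763 UMIs in control cells, the shares were 96.6% in dexamethasone and 91.8% in control cells. In neuron-like cells, at median depths of 5484 UMIs in dexamethasone and 2102 UMIs in control cells, 24.0% of dexamethasone and 22.8% of control cells held one.

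Among the other class I heavy chains with at least 20 CPM, none was shifted like RT1-A2 in microglia-like cells. RT1-CE10, the heavy chain with the most UMIs, had 2096 CPM in dexamethasone and 2033 CPM in control cells (log2 ratio 0.04, 0.03 to 0.06). RT1-CE4 had 789 CPM in dexamethasone and 722 CPM in control cells (0.13). RT1-A1 had 289 CPM in dexamethasone and 265 CPM in control cells (0.13). The other 5 were lower in the dexamethasone library. Of these, RT1-CE5 had 210 CPM in dexamethasone and 289 CPM in control cells (-0.46, -0.50 to -0.42). RT1-T24-4 had 19.6 CPM in dexamethasone and 28.5 CPM in control cells (-0.54, -0.68 to -0.41). RT1-S3, RT1-T24-3 and RT1-M3-1 had log2 ratios of -0.25, -0.24 and -0.14.

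The mixture of class I heavy chains therefore differed between the libraries. Of all class I heavy chain UMIs, RT1-A2 made up 20.3% in dexamethasone and 13% in control microglia-like cells. It made up 20.0% in dexamethasone and 13% in control border-macrophage-like cells, and 16.9% in dexamethasone and 12.2% in control cells of the S100a8/S100a9 cluster. RT1-CE10 made up 46.7% in dexamethasone and 50.01% in control microglia-like cells, and RT1-CE5 4.67% in dexamethasone and 7.10% in control. RT1-A2 thus took a larger share of the dexamethasone heavy chain UMIs in each of the 3 classes. In the S100a8/S100a9 cluster RT1-CE10 was also higher, at 780 CPM in dexamethasone and 464 CPM in control cells (0.75, 0.60 to 0.90). The RT1 heavy chain genes include near-identical copies, and how their shared reads were counted is not given in the sources used here, so values of single heavy chains are uncertain. Adding B2m and RT1-A2 gave 6907 CPM in dexamethasone and 6561 CPM in control microglia-like cells (0.07, 0.07 to 0.08).

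**Figure D2:**
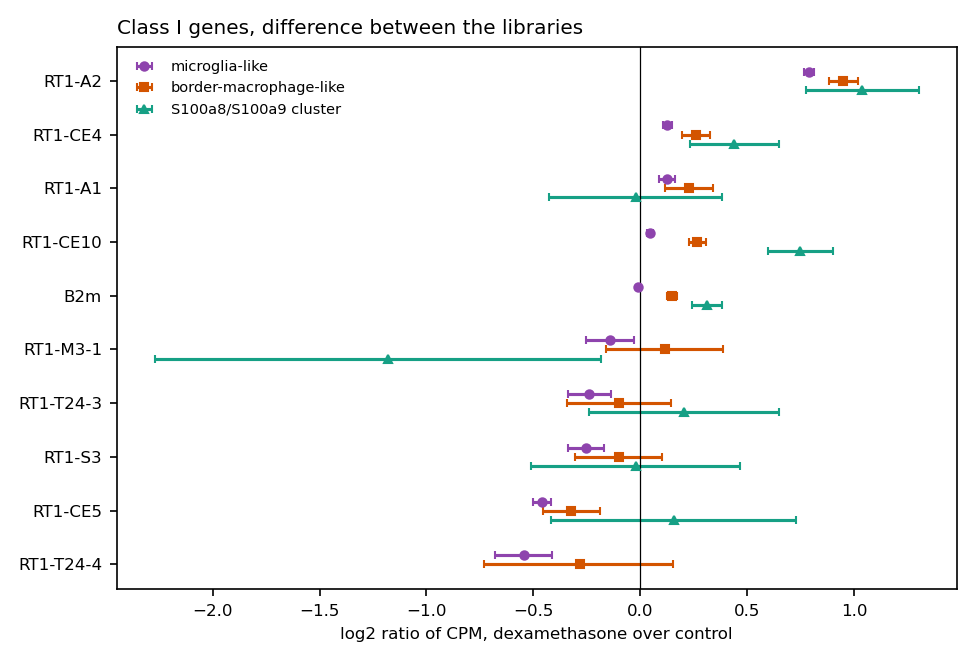
Log2 ratio of CPM, dexamethasone over control, of class I genes with at least 20 CPM in a library, in microglia-like cells (purple circles), border-macrophage-like cells (orange squares) and the S100a8/S100a9 cluster (green triangles), with exact 95% conditional binomial intervals. RT1-A2 lies at 0.79, 0.95 and 1.04 in these classes, B2m at -0.01, 0.15 and 0.31, and RT1-CE5 at -0.46, -0.32 and 0.16.

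In the non-myeloid cells of the sort, B2m and RT1-A2 were found near the relative level of other macrophage transcripts. Relative to microglia-like cells of the same library, neuron-like cells held 18.3% of the B2m level in dexamethasone and 29.9% in control cells. The C1q genes, complement components made by macrophages, stood at 17.5% in dexamethasone and 29.0% in control neuron-like cells. Csf1r, a macrophage growth factor receptor, stood at 19.0% in dexamethasone and 27.2% in control neuron-like cells. Whether class I UMIs of neuron-like cells came from free RNA, doublets or the cells themselves was not tested. Their B2m level was 1097 CPM in dexamethasone and 1802 CPM in control neuron-like cells, and their RT1-A2 level 153 CPM in dexamethasone and 154 CPM in control. Erythroid-like cells held 7.90% of the B2m level in dexamethasone and 7.04% in control cells, beside 7.78% of the C1q level in dexamethasone and 5.84% in control. Their RT1-A2 was at 8.28% in dexamethasone and 8.30% in control, again near the macrophage genes. The class I heavy chain RT1-S3 did not follow this pattern. It was at 24.2 CPM in dexamethasone and 35.0 CPM in control erythroid-like cells. In microglia-like cells it was at 51.3 CPM in dexamethasone and 61.2 CPM in control.

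In S100a8/S100a9 cells B2m lay above the macrophage genes and RT1-A2 near Csf1r. Cells of that cluster with at least 10 S100a8 and S100a9 UMIs held 42.5% of the microglia-like B2m level in dexamethasone and 34.5% in control cells. Their C1q level was 10.6% in dexamethasone and 9.36% in control, and their Csf1r level 25.9% in dexamethasone and 26.0% in control. RT1-A2 was at 29.5% in dexamethasone and 27.7% in control. Border-macrophage-like cells held 82.9% of the B2m level in dexamethasone and 74.3% in control cells. Their RT1-A2 was at 77.2% in dexamethasone and 69.0% in control, while C1q was at 121% in dexamethasone and 125% in control.

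**Figure D3:**
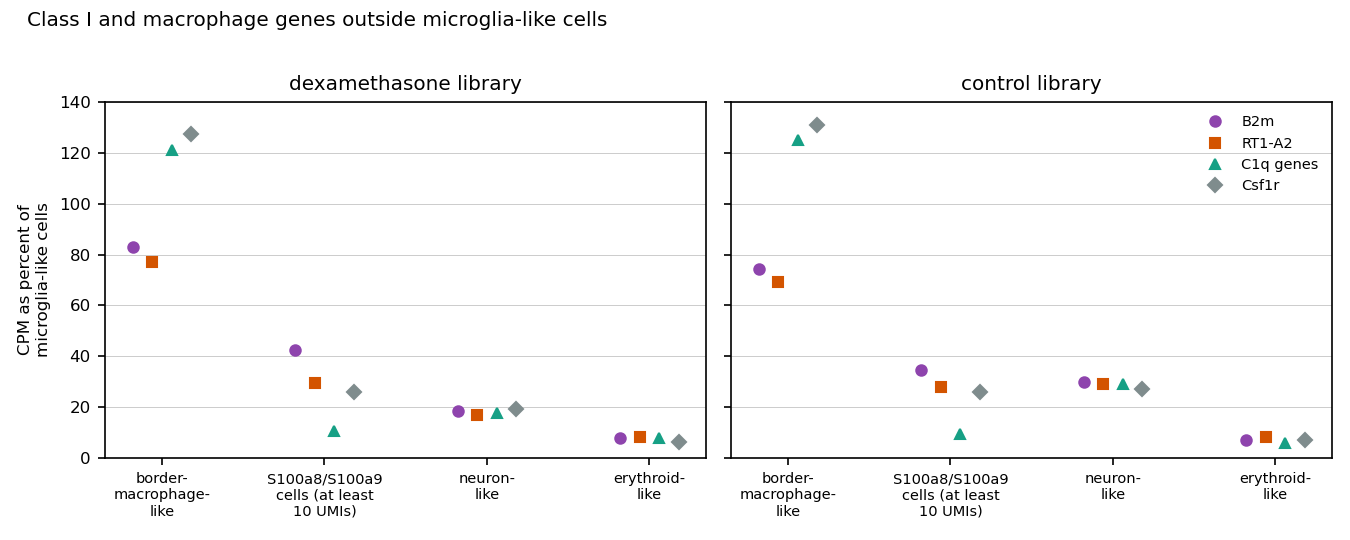
Level of B2m, RT1-A2, the C1q genes and Csf1r in 4 other sets of cells as a percent of the level in microglia-like cells of the same library, dexamethasone at left and control at right. The 4 values lie together in neuron-like and erythroid-like cells (B2m 18.3% and 7.90% in the dexamethasone library), whereas in S100a8/S100a9 cells of that library B2m (42.5%) lies above Csf1r (25.9%) and C1q (10.6%).

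Class II transcripts were undetected in most cells and concentrated in very few. Cd74, RT1-Da, RT1-Db1 and RT1-Ba together had 0 UMIs in 4014 of 4198 dexamethasone cells (95.6%) and 7519 of 8044 control cells (93.5%). A cell was called MHC-II-high with at least 10 UMIs of these 4 genes. There were 28 such cells in dexamethasone (0.667%, 0.444 to 0.963%) and 79 in control (0.982%, 0.778 to 1.22%), so the intervals of the shares overlapped. These 107 of 12242 kept cells held 96.3% of all class II UMIs in dexamethasone and 94.6% in control. The median high cell carried 146 class II UMIs in dexamethasone and 71 in control cells, and the highest carried 802 in dexamethasone and 728 in control. Just inside the threshold, 1 dexamethasone and 3 control cells had exactly 10 UMIs, and just outside it 3 dexamethasone and 3 control cells had 9.

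**Figure D4:**
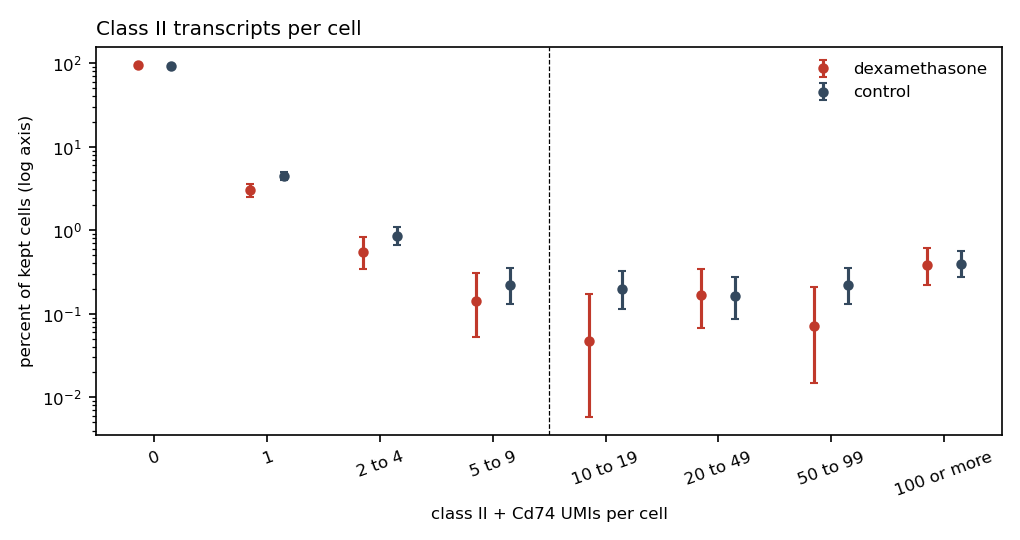
Percent of kept cells (log axis) by their number of class II plus Cd74 UMIs, dexamethasone in red and control in dark blue, with exact 95% Clopper-Pearson intervals; the dashed line marks the threshold of 10 UMIs. Most cells have none (95.6% in dexamethasone, 93.5% in control), and the highest bin, 100 or more UMIs, holds 16 dexamethasone and 32 control cells.

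By class, in the clustering used here, the S100a8/S100a9 cluster held more of the high cells than any other class, 46.4% of them in dexamethasone and 59.5% in control. It contained 13 high cells among 91 of dexamethasone (14.3%, 7.83 to 23.2%) and 47 among 127 of control (37.0%, 28.6 to 46.0%). Microglia-like cells contained 12 of dexamethasone (0.358%) and 14 of control (0.228%). Border-macrophage-like cells contained 3 of dexamethasone (0.571%) and 18 of control (1.66%). None was found in the other classes. In neuron-like cells a count of 0 allows a share of up to 2.48% in dexamethasone and 0.599% in control cells, and in erythroid-like cells of up to 2.94% in dexamethasone and 2.29% in control. The placement of the high cells depended on the clustering. With stricter cell filters the S100a8/S100a9 cluster held 4 dexamethasone and 18 control high cells. Border-macrophage-like cells then held 16 dexamethasone and 48 control high cells.

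Within the S100a8/S100a9 cluster, S100 genes and class II genes were carried by different cells. S100a8 and S100a9 encode the subunits of calprotectin, a protein of neutrophils and monocytes. Of the cells with at least 10 S100a8 and S100a9 UMIs, 61 in dexamethasone and 44 in control cells, none was MHC-II-high, and the most class II UMIs in any of them were 3 in dexamethasone and 1 in control. S100-carrying cells made up 67.0% of the cluster in dexamethasone and 34.6% in control, which enters the share of high cells over the whole cluster. All high cells of the cluster were among the 30 dexamethasone and 83 control cells below 10 S100 UMIs, where they made up 43.3% (25.5 to 62.6%) in dexamethasone and 56.6% (45.3 to 67.5%) in control. As a share of all kept cells they were 0.310% (0.165 to 0.529%) in dexamethasone and 0.584% (0.430 to 0.776%) in control. The intervals did not overlap over the whole cluster but overlapped with either of these denominators. The remaining 17 dexamethasone and 36 control cells were neither high nor S100-carrying. The class II level of the whole cluster was 3712 CPM in dexamethasone and 7442 CPM in control cells (log2 ratio -1.0, -1.06 to -0.95). Within the high cells alone, which were chosen by their class II UMIs, it was 22942 CPM in dexamethasone and 16599 CPM in control cells (0.47, 0.41 to 0.52).

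**Figure D5:**
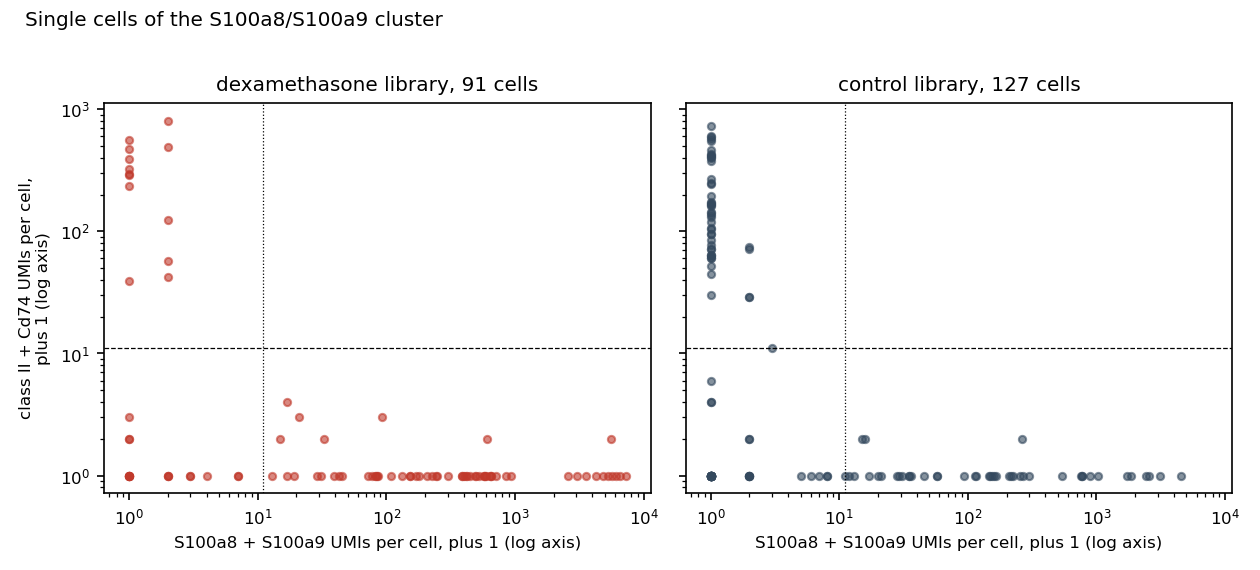
Each point is 1 cell of the S100a8/S100a9 cluster, with S100a8 plus S100a9 UMIs on the x axis and class II plus Cd74 UMIs on the y axis (both plus 1, log axes); the 91 dexamethasone cells are at left and the 127 control cells at right, and lines mark 10 UMIs. No cell lies in the upper right, and 13 dexamethasone and 47 control cells lie on or above the line at upper left.

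Each class II member was lower in the dexamethasone library over this cluster. Cd74, the invariant chain, was at 1371 CPM in dexamethasone and 3229 CPM in control cells (-1.24, -1.32 to -1.15). RT1-Da, the alpha chain of the D molecule, the rat counterpart of human DR, was at 979 CPM in dexamethasone and 1807 CPM in control (-0.88, -0.99 to -0.78). Its beta chain RT1-Db1 was at 835 CPM in dexamethasone and 1383 CPM in control (-0.73, -0.84 to -0.61). RT1-Ba, the alpha chain of the B molecule, the counterpart of DQ, followed the same direction, at 526 CPM in dexamethasone and 1024 CPM in control (-0.96, -1.10 to -0.82). So did its partner RT1-Bb, which is not one of the 7, at 80.1 CPM in dexamethasone and 127 CPM in control (-0.66). Of the 6 members measured with at least 20 UMIs, 4 were lower by at least 0.5 on the log2 scale and 1, RT1-A2, was higher. Of 7148 genes measured in the cluster, 17.5% were lower and 10.6% higher by as much, with a median of -0.09. The class II mixture differed as well, with Cd74 making up 36.9% of its UMIs in dexamethasone and 43.4% in control, and RT1-Db1 22.5% in dexamethasone and 18.6% in control. Within the high cells of the cluster, which were chosen by these UMIs, each of the 4 members was higher in dexamethasone. The log2 ratios there were 0.24 for Cd74, 0.59 for RT1-Da, 0.74 for RT1-Db1 and 0.51 for RT1-Ba.

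Most high cells carried all 4 class II members. High cells were chosen by the summed UMIs of these same 4 genes, so their carriage is largely set by that choice. Of the 107, all held Cd74, 103 RT1-Da, 98 RT1-Ba and 86 RT1-Db1, and 83 held all 4. RT1-Bb was found in 56 and RT1-DOa, a chain of the modulator of peptide loading, in 17. RT1-DMa, a chain of the peptide exchange factor, was found in 1 and RT1-DMb in 0. RT1-DMb was rare in microglia-like cells too, held by 0.447% of dexamethasone cells (15 UMIs) and 0.179% of control cells (11 UMIs). At such shares a 0 among 107 cells shows no difference. Ciita, the class II coactivator, was rarely caught, with 6 UMIs in 5 dexamethasone cells and 17 UMIs in 12 control cells. Of these 17 cells 13 were MHC-II-high (76.5%) and 10 lay in the S100a8/S100a9 cluster. With 4 UMIs (3.6 CPM) in dexamethasone and 12 UMIs (9.17 CPM) in control cells of that cluster, a difference in Ciita was not detectable at this depth (-1.35, -3.44 to 0.37).

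Compared with the remaining cells of the S100a8/S100a9 cluster, the high cells of both libraries were led by Clec10a, a lectin of macrophages and conventional dendritic cells, at 561 CPM in high and 18.7 CPM in other cells. Irf8, a transcription factor of dendritic cells and monocytes, was among the 12 leading genes at 257 CPM in high and 74.3 CPM in other cells. Of the 60 high cells of the cluster, 59 held Plac8, 55 Napsa, 45 S100a4 and 41 Clec10a. Plac8, Napsa and S100a4 were not among the 12 leading genes, so their carriage is not given as a mark of the high cells within the cluster. Flt3, the receptor of dendritic progenitors, was held by 15 of the 60, and by 44 kept cells in all. Clec9a, a marker of a dendritic lineage, was held by 4 of the 60 and by no other kept cell. Siglech, a marker of plasmacytoid dendritic cells and of mouse microglia, was carried by 4 control cells in all, each of them MHC-II-high and in this cluster, with 42 UMIs together.

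Marker lists did not give these cells one identity. The 12 granulocyte genes summed to 33.5 CPM in dexamethasone and 51.2 CPM in control high cells of the cluster, with 9 of them at 0 in dexamethasone and 8 at 0 in control. In the S100-carrying cells the same genes summed to 96876 CPM in dexamethasone and 63598 CPM in control. The 5 monocyte genes found summed to 16679 CPM in dexamethasone and 13921 CPM in control high cells. This sum did not set the high cells apart. Lyz2 alone, a gene of that list, was at 25941 CPM in dexamethasone and 15597 CPM in control over the whole cluster. Dendritic cell genes, 12 in all, summed to 848 CPM in dexamethasone and 739 CPM in control high cells, with Ccr7, Ccl22 and Cd209a at 0 in both libraries, and were no lower in the S100-carrying cells (1054 CPM in dexamethasone, 1135 CPM in control). The 15 microglia genes summed to 3226 CPM in dexamethasone and 2276 CPM in control high cells, beside 13178 CPM in dexamethasone and 11950 CPM in control microglia-like cells. The high cells are given no cell type name here.

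In microglia-like cells the class II level rested on 26 cells. The 4 genes had 52.6 CPM in dexamethasone (1748 UMIs) and 30.7 CPM in control (1660 UMIs), a log2 ratio of 0.78 (0.68 to 0.88). The 12 dexamethasone and 14 control high cells held 91.0% of these UMIs in dexamethasone and 72.9% in control. Without them the direction turned, with 4.79 CPM in dexamethasone and 8.35 CPM in control cells (-0.80, -1.07 to -0.54). Single members showed the same dependence. Cd74 was at 24.2 CPM in dexamethasone and 16.5 CPM in control microglia-like cells, and at 2.79 CPM in dexamethasone and 5.16 CPM in control without the high cells. RT1-Da was at 13.9 CPM in dexamethasone and 6.75 CPM in control, and RT1-Db1 at 7.40 CPM in dexamethasone and 3.20 CPM in control. RT1-Ba was at 7.10 CPM in dexamethasone and 4.21 CPM in control. Without the high cells the log2 ratios turned negative, from few UMIs. They were -0.47 (-1.18 to 0.21) for RT1-Da, whose interval included 0, -1.04 (-2.16 to -0.04) for RT1-Db1 and -0.69 (-1.38 to -0.05) for RT1-Ba. The cells left were chosen by their low UMIs of these same genes. Clusters disagreed too: one led by histone genes had 211 CPM in dexamethasone and 8.08 CPM in control cells, and one led by Mcm genes 48.3 CPM in dexamethasone and 115 CPM in control. Over all cells of the class, 5 of the 6 measured members were higher by at least 0.5 and none lower, where 6.49% and 6.57% of 12457 genes were higher and lower by as much, with a median of -0.01. RT1-A2 is the one of the 5 whose direction did not depend on the high cells.

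The 26 high cells called microglia-like carried monocyte transcripts beside those of microglia. All 26 held C1qa, and 13 held P2ry12, the microglial purine receptor. Of other genes of the monocyte list, Plac8 was held by 12 of the 26 and S100a4 by 7. Levels summed over cells do not show whether the same cells carried both sets of genes. Lyz2, a lysozyme of monocytes and macrophages, was at 6389 CPM in dexamethasone and 5801 CPM in control high cells, and at 249 CPM in dexamethasone and 341 CPM in control cells of the rest of the class. P2ry12 was at 66.3 CPM in dexamethasone and 68.2 CPM in control high cells, and at 172 CPM in dexamethasone and 216 CPM in control cells of the rest. The high cells were also deeper, with a median of 17302 UMIs in dexamethasone and 11440 UMIs in control, where the rest had 8864 UMIs in dexamethasone and 7759 UMIs in control. Their median doublet score was 0.0603 in dexamethasone and 0.109 in control, and that of the rest 0.0498 in dexamethasone and 0.0881 in control. The part of doublets in the class II level of this class was not tested. The class of these high cells depended on the clustering. With MHC genes among the variable genes, microglia-like cells held 3 dexamethasone and 2 control high cells. The S100a8/S100a9 cluster then held 24 dexamethasone and 66 control high cells.

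In border-macrophage-like cells the class II genes were lower in the dexamethasone library, at 53.6 CPM (273 UMIs) against 77.7 CPM (690 UMIs) in the control (-0.54, -0.74 to -0.33). The 3 dexamethasone and 18 control high cells held 79.5% of these UMIs in dexamethasone and 75.8% in control. Without those cells 11 CPM was left in dexamethasone and 19.2 CPM in control cells (-0.80, -1.27 to -0.36). The cells left were chosen by their low class II UMIs. The direction was not firm against the clustering: putting back the 1 cell removed as a doublet and clustering again gave 0.70. Cd74 was at 33.0 CPM in dexamethasone and 49.1 CPM in control (-0.57, -0.84 to -0.31), and RT1-Ba at 4.12 CPM in dexamethasone and 9.90 CPM in control (-1.27, -2.03 to -0.57). For RT1-Da, at 12.2 CPM in dexamethasone and 13.8 CPM in control, and RT1-Db1, at 4.32 CPM in dexamethasone and 4.84 CPM in control, the interval of the ratio included 0. Of the 6 measured members 1, RT1-A2, was higher by at least 0.5 and 2 were lower, where 6.40% and 8.87% of 10201 genes were higher and lower by as much, with a median of -0.03.

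Outside the high cells, class II transcripts were sparse in both libraries and lower in dexamethasone. All kept cells that were not MHC-II-high had 5.50 CPM (230 UMIs) in the dexamethasone library and 9.49 CPM (650 UMIs) in the control (-0.79, -1.01 to -0.57). After thinning, 2.27% of dexamethasone and 3.21% of control microglia-like cells held at least 1 class II UMI, and unthinned 3.94% of dexamethasone and 5.71% of control cells did. Of neuron-like cells, 0 of 68 in dexamethasone and 1.52% of 198 in control held one after thinning, with intervals up to 5.28% in dexamethasone and 4.36% in control that include the microglia-like shares. Over the whole depth neuron-like cells held 0 class II UMIs in dexamethasone and 9 in control, and erythroid-like cells 0 in dexamethasone and 5 in control. The control library also had the larger share of high cells, and the part of free RNA from them in these low levels was not tested.

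With the classes as clustered here, class I and class II ran in opposite orders across the 3 myeloid classes of the control library. In dexamethasone the class II levels of microglia-like cells (52.6 CPM) and border-macrophage-like cells (53.6 CPM) had overlapping intervals. The ratio of class I to class II UMIs of the members was 131 in dexamethasone and 214 in control microglia-like cells. It was 106 in dexamethasone and 62.4 in control border-macrophage-like cells. In the S100a8/S100a9 cluster it was 0.892 in dexamethasone and 0.346 in control, so there class II UMIs outnumbered those of B2m and RT1-A2 in both libraries. The high cells of all classes also carried class I: RT1-A2 was at 658 CPM in dexamethasone and 208 CPM in control high cells (1.66, 1.40 to 1.92), and B2m at 4632 CPM in dexamethasone and 3213 CPM in control (0.53, 0.45 to 0.61).

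The genes that regulate class I or cut, carry and load its peptides passed 0.5 in microglia-like cells about as often as all genes. Among 16 measured, 1 was higher and 1 lower by at least 0.5, where 6.49% and 6.57% of all measured genes were. Their median log2 ratio was -0.11, beside -0.01 for all genes. Tap1, a subunit of the peptide transporter, had 61.7 CPM in dexamethasone and 79.1 CPM in control cells (-0.36, -0.44 to -0.28). The chaperone Calr had 1690 CPM in dexamethasone and 1905 CPM in control (-0.17), and the chaperone Hspa5 757 CPM in dexamethasone and 970 CPM in control (-0.36). Tapbpl, an editor of class I peptides, was lower too, at 19.6 CPM in dexamethasone and 26.2 CPM in control (-0.42). The gene past 0.5 on the higher side was Tap2, the partner of Tap1, at 5.69 CPM (189 UMIs) in dexamethasone and 1.37 CPM (74 UMIs) in control (2.06, 1.66 to 2.46). In border-macrophage-like cells Tap2 was at 5.30 CPM in dexamethasone and 1.35 CPM in control (1.97, 0.94 to 3.09). The gene on the lower side was Nlrc5, the class I counterpart of Ciita, at 0.451 CPM (15 UMIs) in dexamethasone and 1.37 CPM (74 UMIs) in control (-1.60, -2.51 to -0.79). Tap2 and Nlrc5, like Mr1, RT1-DMb, Tnfsf9, Pdcd1lg2 and Socs1, were chosen after their values were seen, outside the rule for named genes. Of 5 class I-like genes 1, Mr1, was lower by at least 0.5 and none higher (median -0.40). Mr1 had 0.1504 CPM from 5 UMIs in dexamethasone and 0.3512 CPM from 19 UMIs in control, with an interval that included 0 (-1.22, -3.00 to 0.25). Fcgrt, the neonatal Fc receptor, had 1122 CPM in dexamethasone and 1194 CPM in control (-0.09). Cd1d1, which presents lipids, had 19.1 CPM in dexamethasone and 19.5 CPM in control (-0.03).

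The proteases and loading genes of class II lay near level in microglia-like cells. Of 12 measured, 1, RT1-DMb, was higher by at least 0.5 and none lower. Of all measured genes, 6.49% were higher and 6.57% lower by as much. RT1-DMb had 0.451 CPM in dexamethasone and 0.203 CPM in control, from few UMIs, with an interval that included 0 (1.15, -0.07 to 2.42). Of the 12, 5 lay above and 7 below 0, with a median of -0.07. Ctsl, a cathepsin of the endosomal pathway, had 838 CPM in dexamethasone and 1048 CPM in control (-0.32, -0.34 to -0.30). Ifi30, a lysosomal thiol reductase, had 979 CPM in dexamethasone and 1231 CPM in control (-0.33, -0.35 to -0.31). Lgmn, the protease legumain, was closer, at 2202 CPM in dexamethasone and 2485 CPM in control (-0.17), as was the tetraspanin Cd63, at 1578 CPM in dexamethasone and 1715 CPM in control (-0.12). None of 11 measured transcription factors of class II passed 0.5 (median -0.02), and Irf8 was at 124 CPM in dexamethasone and 118 CPM in control (0.07). Spi1, the factor PU.1 of myeloid cells, was at 245 CPM in dexamethasone and 283 CPM in control (-0.21).

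Costimulation genes, which give T cells their second signal, were near level, and the median of interferon gamma signalling, the classical inducer of both MHC classes, lay below 0. Of 9 measured costimulation genes 2 were higher and none lower by at least 0.5 (median 0.01), where 6.49% and 6.57% of all measured genes were. Tnfsf9 had 2.35 CPM in dexamethasone and 1.26 CPM in control cells (0.90, 0.41 to 1.39). Pdcd1lg2 had 0.361 CPM from 12 UMIs in dexamethasone and 0.148 CPM from 8 UMIs in control, with an interval that included 0 (1.29, -0.12 to 2.78). Cd83, a maturation marker of dendritic cells, had 172 CPM in dexamethasone and 132 CPM in control microglia-like cells (0.38, 0.33 to 0.43). Icam1, an adhesion ligand, had 21.2 CPM in dexamethasone and 17.4 CPM in control (0.28), while the costimulator Cd86 had 89.8 CPM in dexamethasone and 102 CPM in control (-0.18). Of 15 measured genes of interferon gamma signalling none was higher and 2, Igtp and Socs1, were lower by at least 0.5, where 6.57% of all measured genes were. Of the 15, 4 lay above and 11 below 0, with a median of -0.24 beside -0.01 for all genes. Socs1, a feedback inhibitor, had 1.56 CPM in dexamethasone and 2.46 CPM in control (-0.65, -1.14 to -0.18). The receptor chain Ifngr1 had 1003 CPM in dexamethasone and 1395 CPM in control (-0.48, -0.49 to -0.46). Its partner Ifngr2 had 164 CPM in dexamethasone and 171 CPM in control (-0.06), and the induced GTPase Igtp 33.6 CPM in dexamethasone and 49.4 CPM in control (-0.56, -0.66 to -0.46).

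The same lists outside microglia-like cells rested on fewer counts. In border-macrophage-like cells the medians of the 6 lists lay between -0.31 (class I-like, 3 measured genes) and 0.09 (costimulation, 7 genes). In the S100a8/S100a9 cluster 2 of 3 measured costimulation genes, Cd86 and Icam1, were lower by at least 0.5, where 17.5% of all measured genes were. Icam1 rested on 8 dexamethasone and 17 control UMIs, with an interval of its log2 ratio that included 0 (-2.27 to 0.44), and Cd86 was at 24.3 CPM in dexamethasone and 43.5 CPM in control (-0.84, -1.56 to -0.16). Irf8, one of the leading genes of the high cells, was at 107 CPM in dexamethasone and 154 CPM in control cells of the cluster (-0.52, -0.86 to -0.19), beside the smaller share of high cells.

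The genes whose levels were most like those of a member were found by Pearson's r over 10 points, 5 classes in each of 2 libraries. Nearest to B2m was Rnaset2, a lysosomal ribonuclease (0.999), followed by Arhgap25 (0.995), Inpp5d (0.994), Entpd1 (0.993) and Colgalt1 (0.992). Nearest to RT1-A2 were LOC690617 (0.974), Rgs1 (0.968), Man2b2 (0.964), Dennd2c (0.962) and Rin2 (0.960), of which Rgs1 had 59.5 CPM in dexamethasone and 32.8 CPM in control microglia-like cells. Nearest to Cd74 were Lilrb2 (0.992), RGD1559482 (0.982), Lyz2 (0.978), Emp3 (0.978) and Lst1 (0.975). The points share libraries, depth and free RNA, and the values describe likeness over these points only.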

How the data were processed

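Single-cell RNA sequencing had been done on flow-sorted hippocampal microglia, with 1 library of dexamethasone-exposed and 1 of control embryos. The deposited values are raw counts of UMIs per gene and barcode, made by the authors with Cell Ranger 7.0.0 on Rnor_6.0, per the submitters' processing notes. No cell annotation was used, and 13 of 210 symbols of the gene lists had no match. The members and all lists were chosen with earlier results of these data known.

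Kept cells had 200 genes or more and no more than 20% mitochondrial UMIs. Scrublet marked 1 of 4199 dexamethasone and 0 of 8044 control cells. Marking under 0.5% of over 5000 cells means that it did not work, so doublets remain. Joint clustering of the libraries used scanpy 1.11.5 (2000 variable genes without MHC genes, 30 components, 15 neighbours, Leiden resolution 0.5), and clusters were named from marker lists among their top 25 genes by fold. A cluster with at least 3 granulocyte markers is called by its leading genes, S100a8 and S100a9, and clusters of very low depth stayed unnamed. The result of 1 marker list is not reported here.

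CPM is the sum of a gene's UMIs in a class per 1000000 UMIs of its cells. With 1 library per group no test was made. Intervals at the 95% level are exact Poisson for a CPM, exact conditional binomial for a ratio and Clopper-Pearson for a share, and a count of 0 is given the limit of 3 counts. A gene with 20 or more UMIs in a class, counting the libraries together, is measured there, and a log2 ratio of 0.5 is the size counted. Named beside the members are the RT1 genes with at least 20 CPM, and from each pathway list the 2 genes with the highest mean and the 2 with the largest ratio in microglia-like cells (at least 20 CPM). Leading genes of the high cells needed at least 100 CPM. For shares of cells each cell was thinned to 3900 UMIs. The calculations were tested on simulated counts. Alternatives covered cell filters, doublets, clustering, the variable genes, a marker gate, scaling, thinning and the MHC-II-high threshold.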

Additional observations from a re-analysis of the deposited data

Results flagged for a closer look

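The log2 ratio of dexamethasone over control had intervals on opposite sides of 0 in microglia-like cells and in another class for the following genes, and the differences between the classes were not tested. Against microglia-like cells, the ratio of the summed class II members was lower by 1.31 log2 units in border-macrophage-like cells (difference -1.31) and by 1.78 in the S100a8/S100a9 cluster (-1.78). For Cd74 the differences were -1.12 in border-macrophage-like cells and -1.78 in the S100a8/S100a9 cluster. For RT1-Ba they were -2.02 in border-macrophage-like cells and -1.71 in the S100a8/S100a9 cluster. In that cluster they were -1.93 for RT1-Da and -1.94 for RT1-Db1. The microglia-like value in each of these rests on 12 dexamethasone and 14 control high cells.

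For B2m, whose ratio in microglia-like cells was -0.01, the differences were 0.16 in border-macrophage-like cells, 0.32 in the S100a8/S100a9 cluster and 0.17 in erythroid-like cells. For the summed class I members the difference was -0.72 in neuron-like cells, whose B2m and RT1-A2 were near the relative level of other macrophage transcripts.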

How the results depend on the processing

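RT1-A2 kept its direction under every alternative run, with log2 ratios between 0.76 and 0.80 in microglia-like cells, 0.85 and 1.28 in border-macrophage-like cells and 0.88 and 1.22 in the S100a8/S100a9 cluster. The share of MHC-II-high cells stayed lower in dexamethasone than in control under 7 alternatives, by -0.396 to -0.164 percentage points (-0.315 as reported). Summed class I in microglia-like cells (0.074) was 0.082 under a marker gate on single cells, 0.088 as a mean of per-cell CPM, 0.064 in thinned cells, 0.060 on a total without mitochondrial, ribosomal protein and haemoglobin genes, 0.084 with a median-of-ratios factor, 0.054 with all class I genes and 0.055 without cycling clusters. In border-macrophage-like cells (0.23) it was 0.46 with stricter cell filters, 0.29 without doublet removal, 0.17 at Leiden resolution 1.0, 0.27 with MHC genes among the variable genes, 0.19 under the gate and 0.26 with the median-of-ratios factor.

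Class II by class was not stable. In microglia-like cells (0.78) it was 1.60 with stricter filters, 0.44 without doublet removal, 0.43 as a per-cell mean, 0.58 in thinned cells and 0.58 without cycling clusters, and it reversed to -0.45 with MHC genes among the variable genes, -0.47 under the gate and -0.80 without high cells. Under those 3 settings Cd74 gave -0.67, -0.55 and -0.89, RT1-Db1 -0.40, -0.33 and -1.04, and RT1-Ba -0.27, -0.59 and -0.69, and RT1-Da gave -0.40 under the gate and -0.47 without high cells. In border-macrophage-like cells (-0.54) it was -0.84 with stricter filters, -1.26 with MHC genes among the variable genes, -0.30 as a per-cell mean, -0.23 in thinned cells and -0.80 without high cells, and it reversed to 0.70 without doublet removal, as did Cd74 (0.38) and RT1-Ba (0.59). Under that setting the class held 5 dexamethasone and 16 control high cells, beside 3 dexamethasone and 18 control as reported, and 16 dexamethasone and 48 control with stricter filters. With stricter filters the S100a8/S100a9 cluster held 4 dexamethasone and 18 control high cells, beside 13 dexamethasone and 47 control as reported. It held 24 dexamethasone and 66 control with MHC genes among the variable genes. In the S100a8/S100a9 cluster no class II member reversed, but RT1-Db1 (-0.73) lay between -0.79 and -0.016. B2m in microglia-like cells, within 0.03 of 0 throughout, reversed to 0.0059 as a per-cell mean and 0.00065 with the median-of-ratios factor. Over the 6 pathway lists in microglia-like cells, 8 genes lay past 0.5, and 4 with a minimum of 100 UMIs. No paired analysis was possible because there is 1 library per group, and for the same reason no library could be left out. Depth limits Ciita, with 23 UMIs in all, and Nlrc5.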
